A study of Arabidopsis thaliana with 12 samples.

Results

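The genes described here are 9 members of the Arabidopsis circadian clock, chosen by locus: the pseudo-response regulators PRR7 (AT5G02810), PRR9 (AT2G46790), PRR3 (AT5G60100) and TOC1 (AT5G61380), the coactivators LNK1 (AT5G64170) and LNK2 (AT3G54500), the MYB-like factor RVE2 (AT5G37260), and the evening genes ELF3 (AT2G25930) and BOA (AT5G59570). They are 9 of the 27444 protein-coding loci in the annotation used, and 8 of them are among the 4018 loci with a row in at least 1 of the authors' 4 deposited tables. PRR9 is in none.

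Polyadenylated RNA was sequenced from whole Arabidopsis thaliana seedlings in 12 libraries, 4 each of wild type (WT; library titles name Col), of the picln-1 mutant and of the prmt5-5 mutant. Per the labels, all 3 genotypes grew at 22 °C in cycles of 12 h light and 12 h dark, for 10 days by the growth label and with 9 days of that regime by the treatment label. The series' design line speaks of a cold treatment, which no label of any library mentions, so whether these seedlings met cold is unknown. pICln is a chaperone that assembles the Sm ring of spliceosomal snRNPs, and PRMT5 is an arginine methyltransferase that modifies Sm proteins and other RNA-binding proteins. Each mutation was studied in 1 line only, and an effect of the mutation cannot be told apart from any other difference of that line. In whole seedlings, fewer cells that express a gene and less RNA per cell cannot be told apart either. The hour of harvest is not given in the labels, so where in the daily cycle these levels lie is unknown.

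The clock is a loop of transcription factors that repress each other at different times of day. The morning factors CCA1 and LHY repress evening genes such as TOC1, and the PRR proteins, which follow one another from morning to night, repress CCA1 and LHY in turn. ELF3 is the scaffold of the evening complex, in which it joins ELF4 with LUX, and BOA is a close relative of LUX. LNK1 and LNK2 are coactivators that act with the RVE8 family to switch on evening genes. Splicing is a known layer of this system, and loss of PRMT5 is known to lengthen the period of the Arabidopsis clock and to alter PRR9 splicing.

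The tables are the authors' own comparisons, and each mutant was set against the same 4 WT libraries. A gene is listed for expression when its adjusted p is below 0.05. The smallest change listed is 0.58 on the log2 scale. A bin, a piece of a gene bounded by annotated splice sites, is listed for usage when its adjusted p is below 0.15 and its retained or included share of junction reads changes by more than 5 percentage points. A gene or bin that is not listed changed by less, missed the limit on p, or was not tested. No values per library, standard errors or depths accompany the tables, so each share of junction reads is 1 value per genotype with no error. An approximate standard error (SE) and 95% interval of each log2 change was computed from its size and the authors' p, as if it were normally distributed.

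The genotypes could be read from the mutated genes. By the authors' deposited table, picln-1 had 11.2-fold less of the pICln transcript than WT. For an intron of PRMT5 the authors' deposited table gives a retained share of 81.0% in prmt5-5, beside 0% in WT and 0.870% in picln-1.

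The splicing results turn on 6 introns and 1 alternative 3' splice site in PRR3, TOC1, ELF3 and BOA. Their sequences are shown first because the retained stretches and their splice sites are what the shares below measure. They were read from the RefSeq TAIR10.1 genome at the TAIR10 positions in the authors' tables. At those positions, 100% of the introns listed for picln-1 and 99.97% of those read for prmt5-5 start with GT or GC and end with AG. The 3 short coding introns are given in full with 10 exon bases at each side, 5′ to 3′. Capitals mark, in order, 9 bases around the 5' splice site (the last 3 of the exon and the first 6 of the intron), the first stop codon in the reading frame of the exon before, and the last 3 intron bases.
TOC1 intron 4 (chr5:24676730-24676833, plus strand): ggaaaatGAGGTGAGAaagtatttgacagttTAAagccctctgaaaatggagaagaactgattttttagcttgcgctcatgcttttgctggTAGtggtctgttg
PRR3 intron 2 (chr5:24200137-24200244, minus strand): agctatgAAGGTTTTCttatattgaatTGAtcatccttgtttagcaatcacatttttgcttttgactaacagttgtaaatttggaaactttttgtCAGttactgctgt
PRR3 intron 8 (chr5:24198659-24198757, minus strand): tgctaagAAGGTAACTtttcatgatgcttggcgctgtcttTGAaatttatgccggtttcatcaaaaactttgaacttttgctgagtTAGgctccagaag

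For the 3 longer introns the splice sites are shown, with capitals for the 9 bases of the 5' splice site or for the AG of the 3' splice site. PRR3 intron 1 has 2 annotated 3' splice sites, 7 bases apart, and both AG pairs are in capitals.
PRR3 intron 1, 5' splice site (chr5:24201112-24201131, minus strand): AAGGTTTGCttttgtttgtc
PRR3 intron 1, both 3' splice sites (chr5:24200653-24200682, minus strand): gggctgaggttttggtgaAGggattAGaat
ELF3 intron 2, 5' splice site (chr2:11060834-11060853, plus strand): CAAGTAAGTtcactagaaat
ELF3 intron 2, 3' splice site (chr2:11062000-11062019, plus strand): tctgtttctcattacAGtca
BOA intron 1, 5' splice site (chr5:24004984-24005003, plus strand): CTGGTGAGCttgttttcgtc
BOA intron 1, 3' splice site (chr5:24005144-24005163, plus strand): attgattcttgttacAGgtt

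The first comparison asks which of the 9 genes changed in transcript level. In prmt5-5, PRR7, LNK1 and LNK2 rose and RVE2 fell, whereas no member was listed for expression in picln-1. The 4 listed members stand against a background of 9.14% of the 16747 genes tested in prmt5-5 (4.99% listed as higher and 4.15% as lower). In picln-1 the background was 1.69% of 16473 genes, so the count of 0 among 9 members is near it. The members were chosen with earlier results of these data known, so no excess over these shares is read. The same holds for the splicing counts and the wider list below. Both mutants share their WT libraries, and the difference between the mutants was not tested.

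PRR7, a repressor of CCA1 and LHY expressed through the day, was 2.95-fold higher in prmt5-5 in the authors' deposited table, with a log2 change of 1.56 and an adjusted p of 9.35e-52. Its approximate interval ran from 1.36 to 1.76 on the log2 scale. By p it was rank 69 of all genes tested, and by size it was rank 57 of the 836 genes listed as higher.

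LNK1 and LNK2 rose by almost the same amount. LNK1 was 1.70-fold higher (log2 change 0.76, approximate SE 0.10, adjusted p = 9.15e-13) in the authors' deposited table for prmt5-5. LNK2 was 1.69-fold higher (log2 change 0.76, approximate SE 0.13, adjusted p = 6.22e-08) in the authors' deposited table for prmt5-5. Both changes were slightly smaller than 0.80, the median log2 change of the genes listed as higher. LNK1 and LNK2 overlap genes on the opposite strand, by 245 bases with AT5G64160 for LNK1, and by 93 bases with AT3G54490 and 266 bases with a long non-coding RNA gene (AT3G08405) for LNK2. Whether the authors counted by strand is unknown, so reads in those stretches could belong to either gene. None of these 3 neighbours was listed for expression in either mutant.

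RVE2, also known as CIR1, encodes a MYB-like factor of the CCA1 and LHY family. It moved the other way and was 1.71-fold lower in prmt5-5 by the authors' deposited table (log2 change -0.77, approximate SE 0.08, adjusted p = 4.75e-19). The median log2 change of the genes listed as lower was -0.78. RVE2 was rank 352 by size of the 695 genes listed as lower.

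**Figure D1:**
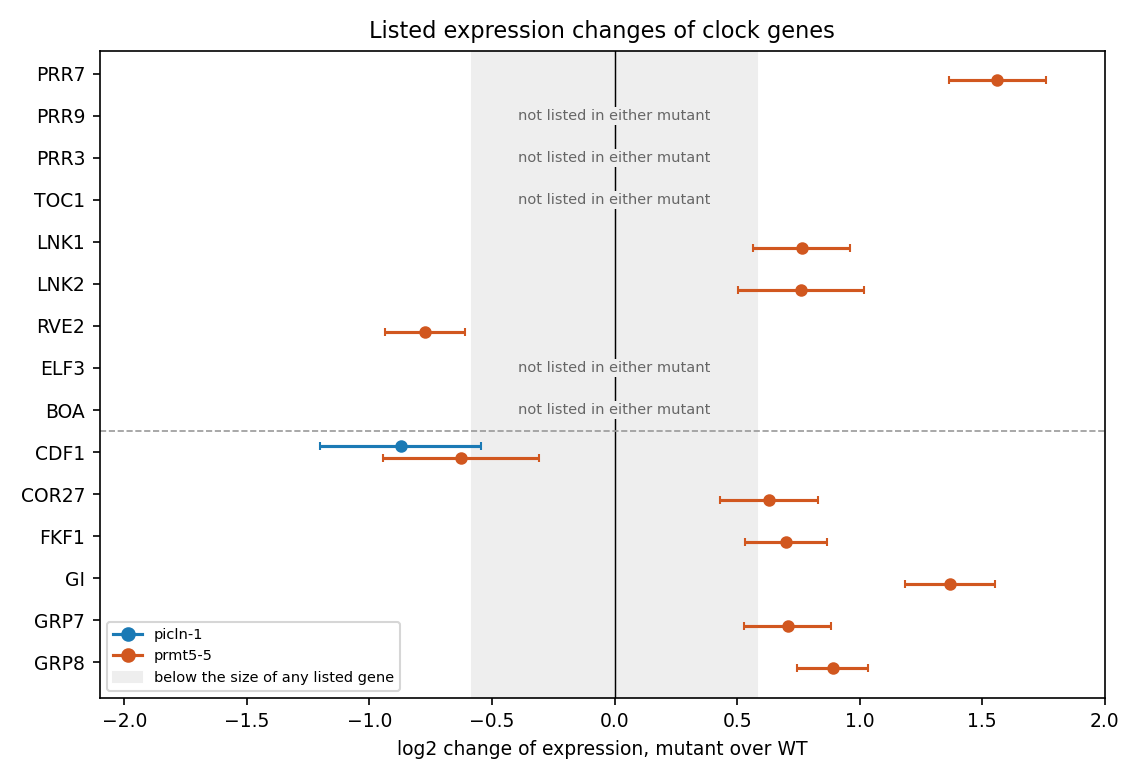
Listed log2 changes of expression (mutant over WT, x axis) for the 9 clock genes above the dashed line and for the listed genes of the wider clock list below it. Points are the authors' values, bars the approximate 95% interval computed from size and p, and the grey band spans changes smaller than any listed gene (0.58). PRR7 lies furthest right at 1.56, RVE2 lies at -0.77, and 5 of the 9 genes have no listed value.

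TOC1, PRR3, PRR9, ELF3 and BOA were not listed for expression in either mutant. For them no expression value is given in the tables, and a change below 0.58 cannot be told apart from no change.

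The second comparison asks which introns and splice sites of these genes changed. Among the 9 genes, 4 were listed for expression, 4 others for a bin, and 0 for both. Being listed for both was uncommon over all genes, with 0.0728% of those tested for expression in picln-1 and 2.35% in prmt5-5, so nothing is read from the 0. The 9 genes have 61 distinct annotated introns, from 2 in BOA to 12 in LNK2. Of these, 5 were listed in picln-1, 3 in prmt5-5 and 2 in both. The listed share of all 131186 annotated introns was 0.396% in picln-1 and 2.55% in prmt5-5. The share of all introns listed in both mutants was not counted, so nothing is read from the 2. Counted as bins, 5 were listed in picln-1 (usage was higher in 4 and lower in 1), against 0.479% of 112984 bins tested (0.428% higher and 0.0504% lower). In prmt5-5, 4 bins were listed, 3 higher and 1 lower, against 2.88% of 118209 bins tested (2.82% higher and 0.0601% lower). How many bins of the members were tested is unknown, so these counts have no share of their own. By gene, 4 of 9 members had a listed bin in picln-1 and 2 of 9 in prmt5-5, beside 470 and 2601 genes in all, which equal 2.85% and 15.5% of the genes tested for expression. The prmt5-5 count is near its share. Genes with more introns have more chances of a call, and these shares are not matched for intron number or read depth.

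TOC1, the PRR protein of the evening, gained retention of intron 4 of 5 in picln-1 (chr5:24676740-24676823). Its retained share was 8.55% in WT, 12.6% in prmt5-5 and 29.8% in picln-1, by the authors' deposited table. The picln-1 value stood 21.3 points above WT, whereas prmt5-5 stood 4.02 points above WT, under the limit for listing whatever its p. Usage of the intron bin rose by 1.62 on the log2 scale in picln-1 by the authors' deposited table (approximate interval 1.19 to 2.05, adjusted p = 2.18e-10). By p it was rank 59 of all bins tested, and by gain of retention rank 62 of the 479 introns listed as higher, whose median gain was 10.7 points.

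The 2 mutants can be set side by side for this intron without WT: picln-1 lay 17.3 points above prmt5-5. Of the 479 introns gained in picln-1, 333 had a higher share in picln-1 than in prmt5-5, and 23 had a wider gap than TOC1 intron 4, which was rank 24. These introns were chosen for being high in picln-1, and no test of the gap was possible from 1 value per genotype.

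The retained TOC1 intron has 84 bases, a multiple of 3, but it holds a TAA in frame that starts at its base 22. The coding sequence before the intron has 199 codons of the 618 in the full coding sequence. The annotated TOC1 gene has 1 transcript, which does not retain this intron. At 39.3% GC the intron was above 94.4% of annotated introns, whose median was 32.8%, and its length was in the lower part of the range (percentile 19.4, median 101 bases).

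PRR3, whose protein is known to bind TOC1 and to shield it from breakdown through ZTL, had more listed bins than any other of the 9 genes, 4 of 7, along its 11 annotated introns. They differed in which mutant moved. Intron 1 rose in both mutants, intron 2 rose in prmt5-5 and intron 8 in picln-1.

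PRR3 intron 1 of 10, in the 5' UTR (chr5:24200663-24201128, 466 bases), had a retained share of 23.5% in WT, 44.7% in prmt5-5 and 43.4% in picln-1, by the authors' deposited table. picln-1 lay 19.9 points and prmt5-5 21.2 points above WT, and the mutants were 1.25 points apart. Bin usage rose by 0.996 (approximate interval 0.50 to 1.49, adjusted p = 0.0127) in picln-1 and by 1.22 (0.74 to 1.69, adjusted p = 3.58e-05) in prmt5-5 on the log2 scale in the authors' deposited tables. Among the 7 annotated PRR3 transcripts, 3 splice out this intron and 2 retain it.

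The 7 bases that adjoin this intron on its 3' side (chr5:24200656-24200662) form the alternative 3' splice site bin. They belong to the exon when the upstream AG in the sequence above is used and to the intron when the downstream AG is used. Inclusion of the bin was 43.8% in WT, 54.1% in prmt5-5 and 50.6% in picln-1, by the authors' deposited table. It was listed in prmt5-5 alone, near the limit (by the authors' deposited table, log2 usage change 0.80 and adjusted p = 0.131). In picln-1 its change of 6.80 points passed the limit on the share, so it was absent from the list through its p or because it was not tested. A transcript that retains intron 1 also includes these 7 bases, so the 2 bins are not independent.

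PRR3 intron 2 (chr5:24200147-24200234, 88 bases, coding) was almost fully spliced in WT and picln-1. Its share was 0.422% in WT, 7.89% in prmt5-5 and 0.952% in picln-1, by the authors' deposited table. This is a gain of 7.47 points and an 18.7-fold ratio to WT in prmt5-5. The WT share is very low and the reads behind it are unknown, so the ratio is poorly determined. Bin usage rose by 4.47 on the log2 scale by the authors' deposited table for prmt5-5 (approximate interval 2.95 to 5.996, adjusted p = 8.12e-07). It was among the smaller gains in points, rank 2535 of 3320 introns listed as higher in prmt5-5, whose median gain was 11.6 points. Its 5' splice site, AAGGTTTTC, scored 5.998 bits, where the median annotated intron scored 7.02 bits. The score sets the base frequencies of all annotated sites against equal base frequencies. Of the introns listed in picln-1 alone, BOA intron 1 scored 5.80, TOC1 intron 4 scored 7.39 and PRR3 intron 8 scored 9.57 bits.

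PRR3 intron 8 (chr5:24198669-24198747, 79 bases, coding) had a retained share of 5.26% in WT, 6.18% in prmt5-5 and 12.8% in picln-1, by the authors' deposited table. Usage of its bin rose by 1.36 in picln-1 by the authors' deposited table (approximate interval 0.74 to 1.99, adjusted p = 0.00448). The change in prmt5-5, 0.915 points, was too small to be listed. Retention of intron 8 is an annotated form: 3 of 7 PRR3 transcripts retain it, and in 3 transcripts the coding sequence ends at the TGA that starts at intron base 31, in capitals in the sequence above. Intron 2 likewise holds an in-frame TGA, which starts at its base 18, after 89 of the 495 codons.

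ELF3 went the other way and lost retention in both mutants. Intron 2 of 3 (chr2:11060837-11062016, coding) is long, with 1180 bases, above 99.5% of annotated introns in length. By the authors' deposited table, its retained share was 40.7% in WT, 30.4% in prmt5-5 and 28.0% in picln-1. Of the 7 bins it had the second highest share in WT, and it was 12.6 points lower in picln-1 and 10.3 points lower in prmt5-5. Bin usage fell by 0.61 on the log2 scale in picln-1 by the authors' deposited table (approximate SE 0.12, adjusted p = 9.23e-05). In prmt5-5 it fell by 0.33 in the authors' deposited table (approximate SE 0.12, adjusted p = 0.0869), which passes the authors' limit of 0.15 but not 0.05. Losses were few in both tables: ELF3 was 1 of 44 introns listed as lower in picln-1 and 1 of 42 in prmt5-5. Reading from the exon before, the retained intron meets a TAA at its base 2, within the 5' splice site CAAGTAAGT. The 5' splice site scored 8.81 bits, above 80.8% of annotated introns. ELF3 overlaps an antisense RNA gene (AT2G08135) and AT2G25940 on the opposite strand, by 183 and 24 bases, outside this intron.

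BOA, which encodes a GARP-family factor closely related to LUX, had 1 listed intron, in the 3' UTR (chr5:24004987-24005160, 174 bases). Its retained share was 2.39% in WT, 8.21% in prmt5-5 and 9.92% in picln-1, by the authors' deposited table. Its usage rose by 1.72 on the log2 scale in picln-1 by the authors' deposited table (approximate interval 0.87 to 2.57, adjusted p = 0.0119). The prmt5-5 value lay 5.82 points above WT, past the limit on the share, and 1.71 points below picln-1. The bin was nevertheless not listed for prmt5-5, so either its p missed the limit or it was not tested. BOA overlaps the opposite-strand gene AT5G59580 by 1896 bases, none of them in this intron.

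**Figure D2:**
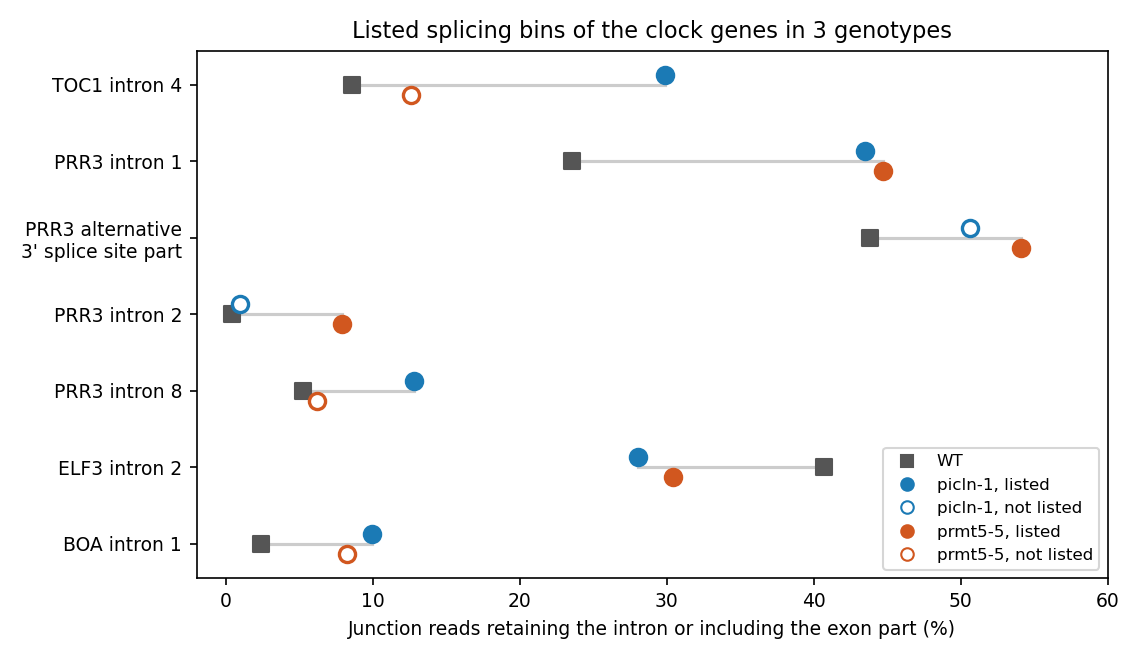
Retained share of an intron, or included share of the exon part (x axis, percent of junction reads), for each listed bin of the 9 genes, with 1 value per genotype pooled by the authors and no error. Filled circles are mutants in which the bin is listed and open circles those in which it is not. Both mutants lie near 44% for PRR3 intron 1 and below WT (40.7%) for ELF3 intron 2, while TOC1 intron 4 stands apart in picln-1 at 29.8%.

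**Figure D3:**
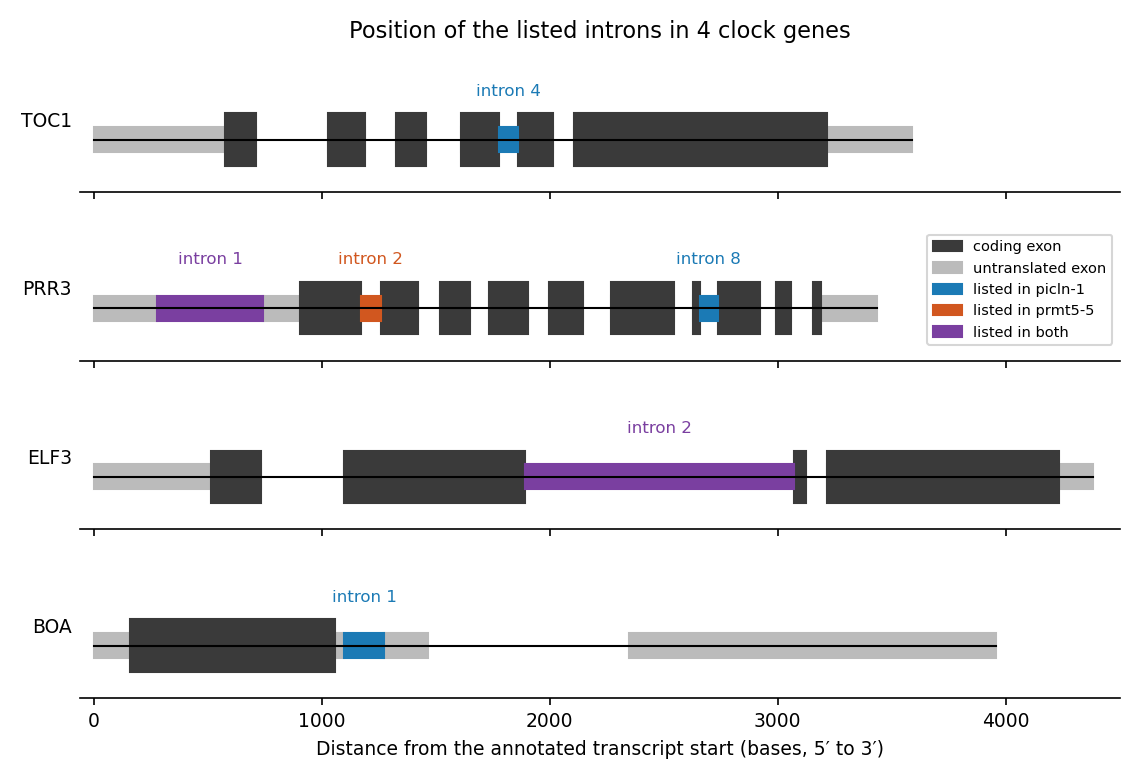
Annotated transcripts of TOC1, PRR3, ELF3 and BOA to scale from the transcript start (x axis, bases), with coding exons dark, untranslated exons grey and listed introns coloured by the mutant in which they are listed. PRR3 has 3 listed introns, of which intron 1 lies before the coding sequence, and the listed intron of BOA lies after it.

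The order of the genotypes differed among the 6 introns. In TOC1 intron 4 and PRR3 intron 8 the share was highest in picln-1 and prmt5-5 stood within the limit of WT. In PRR3 intron 2 the share was highest in prmt5-5 and picln-1 stood 0.530 points from WT. In PRR3 intron 1, ELF3 intron 2 and BOA intron 1 the mutants differed from each other by 1.25, 2.39 and 1.71 points. Both mutants lay on the same side of WT in all 6 introns. Since WT is the same set of libraries in both comparisons, lying on the same side of WT is not independent evidence from each mutant. For every member bin that was listed, the usage change and the change of the junction share had the same sign. That is the usual case: the signs were opposite in only 1 of 541 bins listed for picln-1 and 6 of 3406 for prmt5-5.

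The 6 listed introns overlapped the 55 others of these genes in length, GC content and splice site score. Their lengths ran from 79 to 1180 bases (median 131) and those of the unlisted introns from 65 to 980 (median 116). The scores of their 5' splice sites ran from 5.80 to 9.57 bits (median 7.34), within the range of the unlisted introns, 1.86 to 10.9 bits (median 7.73). GC content ran from 28.4 to 39.3% in the listed introns (median 34.0%) and from 24.2 to 39.5% in the unlisted ones (median 33.3%). The unlisted introns include weak sites such as a PRR7 intron at 2.61 bits and a LNK2 intron at 2.94 bits. Nested forms that share a splice site were counted as separate introns and matched only by equal start and end. The longer form of PRR3 intron 1 is therefore among the unlisted ones, as is the LNK2 form at 1.86 bits. No intron of PRR7, PRR9, LNK1, LNK2 or RVE2 was listed in either mutant. PRR9, with 7 annotated introns, had neither an expression nor a splicing value in the tables.

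**Figure D4:**
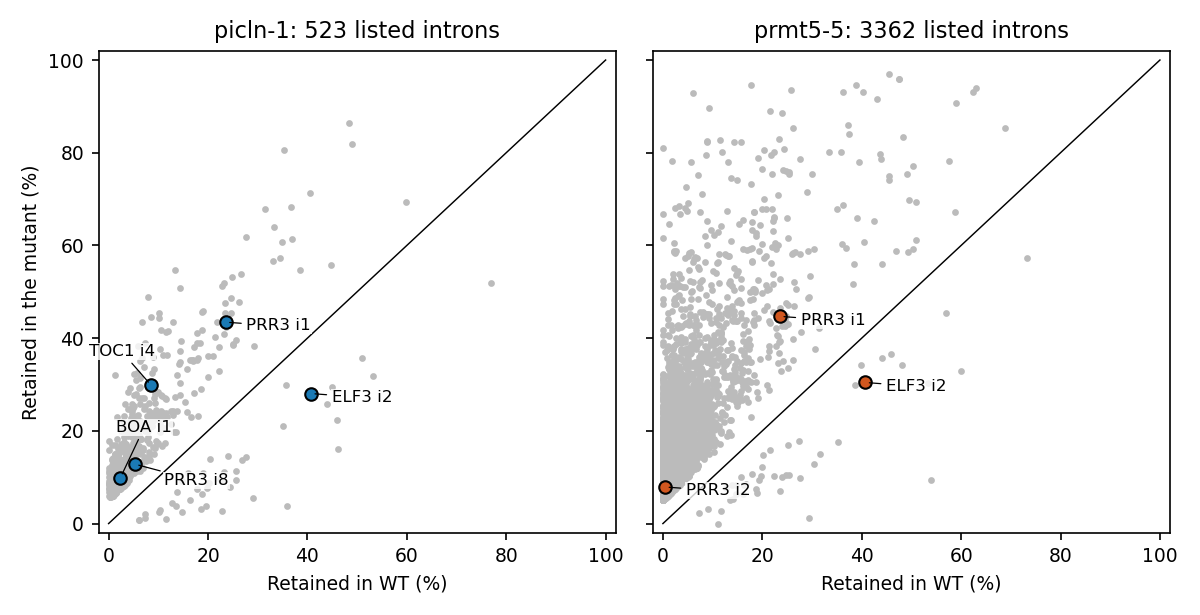
Retained share in WT (x axis, percent) against the mutant (y axis, percent) for every intron listed in picln-1 (left, 523 introns) and prmt5-5 (right, 3362 introns), in grey, with the members' introns coloured and named (i4 is intron 4). The diagonal marks equal shares. TOC1 i4, PRR3 i1 and the low introns of PRR3 and BOA lie above it, and ELF3 i2 lies below it in both panels.

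The promoters were read for motifs of clock and light regulation, from 250 bases before to 50 after each annotated gene start in TAIR10.1, on both strands. The G-box CACGTG, a site bound by light-signalling factors of the bHLH and bZIP classes, is in the windows of 6 of the 9 genes. They include the 4 with a listed expression change, PRR7, LNK1, LNK2 and RVE2, and also PRR9 and BOA, which were not listed for expression. RVE2 fell whereas PRR7, LNK1 and LNK2 rose, and a link between the motif and expression was not tested. Of 27443 protein-coding promoters 7.68% hold it. The windows of the 4 genes listed for expression are shown, with the motif in capitals. The match of LNK1 begins 2 bases before the annotated gene start and that of LNK2 24 bases after it.
PRR7 (chr5:642216-642241, minus strand): cccaccattaCACGTGtcagttcaaa
LNK1 (chr5:25676810-25676835, minus strand): atttagttgcCACGTGttgatatcat
LNK2 (chr3:20179031-20179056, minus strand): actcgtttggCACGTGaccatttcat
RVE2 (chr5:14753236-14753261, minus strand): agaaatcctcCACGTGtcattagcat

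The evening element AAATATCT, a site bound by CCA1 and its relatives, is in the windows of PRR9, TOC1 and BOA and in 5.65% of all promoters. The related CCA1-binding site AAAAATCT is in that of RVE2 and in 7.88% of all promoters. The 3 motifs do not overlap one another in these windows. A match is a description of letters, and the files hold no measurement of binding.

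The rest of the clock was described from a list of 28 further genes. In prmt5-5, 6 of the 28 were listed for expression, 5 higher and 1 lower, beside 9.14% of all genes tested (4.99% higher and 4.15% lower). GI, which stabilises ZTL and promotes flowering in long days, rose by 1.37 on the log2 scale, and the blue-light receptor gene FKF1 rose by 0.70 in the authors' deposited table. GRP8 rose by 0.89 and GRP7 by 0.71, 2 RNA-binding protein genes driven by the clock, and the clock repressor gene COR27 by 0.63 in the authors' deposited table. CDF1, a repressor of flowering that FKF1 and GI remove, fell by 0.63 in prmt5-5 and by 0.87 in picln-1 in the authors' deposited tables. CDF1 was the only 1 of the 28 genes listed for expression in picln-1, where 1.69% of all genes were. CCA1, LHY, PRR5, ELF4, LUX and RVE8 were not listed for expression or splicing in either mutant.

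Bins of 6 of these 28 genes were listed in prmt5-5, all with higher usage, and of 3 in picln-1, 2 higher and 1 lower. Over all genes, those with a listed bin equal 15.5% of the genes tested for expression in prmt5-5, to which 6 of 28 is near, and 2.85% in picln-1. The single FKF1 intron, in coding sequence, had a retained share of 7.89% in WT, 32.5% in prmt5-5 and 18.7% in picln-1, and was listed in both mutants in the authors' deposited tables. JMJ30, which encodes a demethylase of the clock, was likewise listed in both, with a retained share of intron 2 of 22.1% in WT, 45.7% in prmt5-5 and 32.8% in picln-1, by the authors' deposited tables. In prmt5-5 RVE4 intron 7 reached 10.1% from 1.82%, XCT intron 6 reached 10.6% from 1.46%, and AT4G33980 intron 1 reached 7.65% from 2.22% in the authors' deposited table. Retention of GRP8 intron 1 in picln-1 fell from 15.9% to 10.8%, by the authors' deposited table. ZTL intron 1 was listed in prmt5-5 with higher usage (log2 change 0.49, adjusted p = 0.146) although its retained share was lower, 8.51% against 16.8% in WT, in the authors' deposited table. Such opposite signs occurred in 6 of the 3406 bins listed for prmt5-5 and in 1 of 541 for picln-1.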

How the data were processed

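The 12 libraries were grouped by the genotype in the labels. Per the submitters' processing notes, TopHat and the TAIR10 genome were used; the tool behind the counts and tests was not given in the sources used here. The values are those of 4 tables of comparisons that the authors deposited: log2 fold changes of mutant over WT, whose base 2 was inferred because the smallest listed gene change, 0.58, is then 1.49-fold; p-values, raw and adjusted, per the file headers; and a fraction of junction reads per genotype, pooled by the authors and printed here as percent. No column of per-library values was given, so depth is unknown, the planned count tests could not be run, and the authors' calls were used as deposited. The labels do not say whether the 4 libraries of a group are from separate cultures; if not, the p-values reflect technical spread alone.

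The number of features tested was worked out from adjusted over raw p, whose quotient is the number of tests over the rank. This step gave the true number in 4 of 4 runs on simulated data. The simulated lists were cut by p alone, whereas the authors' bins were also cut by change of the share. With the numbers found, 87.8% of listed genes in picln-1 and 94.8% in prmt5-5 had a whole rank. For listed bins it was 81.3% and 85.3%. The numbers tested, and the shares and ranks that use them, are therefore inferred. The approximate SE is the log2 change over the normal quantile that its p corresponds to. Bins were matched to introns of the RefSeq annotation of TAIR10.1 by equal start and end (99.4% of listed introns in picln-1, 99.5% in prmt5-5). Bins that the authors label as intron retention were counted as introns. Intron numbers refer to the annotated transcript with most introns that holds the intron. The 5' splice site score is the sum of log2 odds over 9 bases against equal base frequencies. No run of 50 bases of any of the 9 genes occurs elsewhere in the nuclear chromosomes. Members, the wider list and the tests were chosen with earlier results of these data known. All members and all their listed bins are named, as is each listed gene of the wider list; the members of the wider list named as not listed, and the unlisted introns named for their score, were picked after their values were seen. Alternatives were stricter limits on p, fold and share, and counts of intron bins only. Python 3.11.15, numpy 2.4.6, pandas 2.3.3, scipy 1.17.1 and matplotlib 3.10.9 were used.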

Additional observations from a re-analysis of the deposited data

How the results depend on the processing

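Stricter limits, or a restriction to intron bins, were applied to the counts of listed genes and bins, and 12 of 18 recounts stayed within 1.5 times the count as deposited. The 12 include recounts of the 0 members listed for expression in picln-1, which no stricter limit could change. With a change of at least 2-fold, 1 of the 9 genes (PRR7) instead of 4 was listed for expression in prmt5-5. In the wider clock list the same limit left 1 gene (GI) instead of 6 in prmt5-5 and 0 instead of 1 in picln-1. With adjusted p below 0.05, 2 member bins instead of 4 remained in prmt5-5, PRR3 introns 1 and 2, in 1 gene instead of 2. With a change of the share above 10 points, 3 member bins instead of 5 were listed in picln-1, those of TOC1, PRR3 intron 1 and ELF3. The causes are the limits themselves, since each recount is a subset. The 5 member bins of picln-1 all passed adjusted p below 0.05.

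No paired analysis was possible because the tables hold 1 value per comparison or genotype and none per library. For the same reason the refits without each replicate were not run, and no count at an unadjusted p exists beside the 0 members listed for expression in picln-1. Depth behind each share is unknown.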
